A study of Mus musculus and Rattus norvegicus with 60 samples.

Results

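The cholesterol synthesis and Srebp genes described here are 28 genes of sterol metabolism, measured in laser-captured growth plate cartilage of mice and rats. They were found by gene symbol, ignoring case, in the expression table of each species, and the entry with the highest mean was taken where a symbol had several. All 28 were found among 20155 mouse genes and among 15162 rat genes. In the mouse all 28 passed the filter on low values, which asked 5 or more libraries to reach a normalized count of 10, as did 15213 genes in all. In the rat 27 passed, among 11759 genes. The exception was rat Srebf1, whose level could not be read, since its normalized count was at most 12.5 in any rat library, and no rat value is given for it.

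Cholesterol is built from acetyl-CoA in a fixed order of steps. The mevalonate pathway makes isoprenoid units and joins them into squalene, and the later enzymes close squalene into lanosterol and trim it into cholesterol. The transcription factors encoded by Srebf1 and Srebf2 are held in the endoplasmic reticulum as inactive precursors by Scap and the Insig proteins when sterols are plentiful. When sterols are low, Scap carries the precursors to the Golgi, where they are cut free, and Srebf2 in particular raises the genes of the whole pathway. Stard4 carries cholesterol through the cytosol, while Npc1 and Npc2 release cholesterol from late endosomes and lysosomes. In cartilage, inherited defects of sterol synthesis enzymes disturb skeletal growth in humans and mice.

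Each growth plate gave a proliferative zone (PZ) and a hypertrophic zone (HZ). Those of the proximal tibia were taken at 1 week and at 4 weeks of age, and that of the forelimb's proximal phalanx at 1 week. The mice were C57BL/6 and the rats Sprague Dawley, and per the methods of the study they were males. Each of the 6 groups per species had 5 libraries, 1 per animal, except the mouse 1-week phalanx PZ with 4, since its replicate 3 had no values that could be used here. The zones were captured from frozen sections and the RNA was amplified before library preparation. The labels do not tie PZ to HZ libraries, or tibia to phalanx libraries, of 1 animal, so libraries were compared as independent and p-values between zones or bones rest on that. A comparison of phalanx with tibia is also one of forelimb with hindlimb, and these cannot be told apart. In bulk captures fewer cells of a type and less RNA per cell cannot be told apart either.

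Between 19711370 and 41856130 reads per library were counted in genes in the mouse, of which the ribosomal RNA precursor Rn45s took 31.0% to 80.8%, and between 7805382 and 28981663 in the rat. At 1 week the tibia HZ was sequenced less deeply than the phalanx HZ. Outside Rn45s the mouse medians were 5678503 and 11601935 reads. The rat libraries had 7805315 to 11050032 and 17042949 to 22632899, with no overlap. The part of depth in the bone comparison was not tested. Markers of the PZ, such as Gdf10 and Prelp, were lower in the HZ in all 3 growth plates of both species, with 5 or 6 of 6 markers past the test each time. At least 5 markers of the HZ were higher there each time, of 6 tested in the mouse and 5 in the rat. A pair of HZ libraries stood apart from the rest of their groups toward the PZ. In mouse 1-week phalanx HZ replicate 5 the summed normalized count of the 6 PZ markers was 36057, against 1362 to 3003 in the other 4 libraries. In rat 4-week tibia HZ replicate 3 it was 43594, against 8865 to 19253 in the other 4. Counts of members called that use these libraries are given with and without them below. Module scores and fold changes are given with them only.

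As a summary of all tested genes of the pathway, the module score of a library was taken as the mean over the members of the log2 value minus the mean of that gene over all libraries of the species. The score is a description with no test. In the mouse it was lowest in the 1-week phalanx HZ, at -0.82 ± 0.36 (SD, n = 5). The 5 libraries lay between -1.22 and -0.29, and 4 of them were below every library of the other mouse groups. The other group means were -0.07 ± 0.15 (SD, n = 4) in the phalanx PZ, 0.30 ± 0.12 (SD, n = 5) and 0.06 ± 0.41 (SD, n = 5) in the 1-week tibia PZ and HZ, and 0.48 ± 0.08 (SD, n = 5) and 0.04 ± 0.18 (SD, n = 5) in the 4-week tibia PZ and HZ. The mouse 1-week tibia HZ was the most scattered group, with libraries from -0.42 to 0.60.

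In the rat the phalanx HZ was again lowest, at -0.27 ± 0.22 (SD, n = 5), but close to the phalanx PZ at -0.20 ± 0.22 (SD, n = 5). The rat 1-week tibia HZ had the highest mean, 0.22 ± 0.19 (SD, n = 5), with 0.08 ± 0.11 (SD, n = 5) in the PZ of the same bone. The 4-week rat tibia lay between these, with a PZ score of 0.12 ± 0.21 (SD, n = 5) and an HZ score of 0.05 ± 0.27 (SD, n = 5). Split by pathway step, the mean score of the 8 genes from acetyl-CoA to squalene was -1.20 ± 0.51 (SD, n = 5) in the mouse phalanx HZ and that of the 11 genes from squalene to cholesterol -1.05 ± 0.45 (SD, n = 5). In the rat phalanx HZ these means were -0.28 ± 0.20 (SD, n = 5) and -0.40 ± 0.33 (SD, n = 5).

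**Figure D1:**
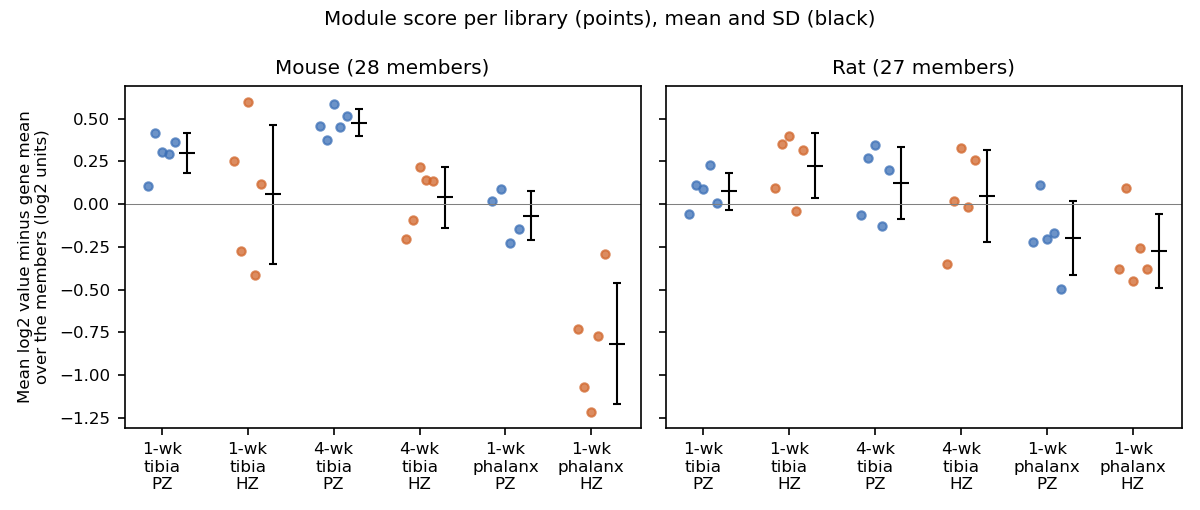
Module score per library, in log2 units relative to the mean of each gene over all libraries of the species, in the 6 groups of the mouse (28 members) and the rat (27 members). Points are libraries (PZ blue, HZ orange), and black marks with bars are the mean and SD. The mouse 1-week phalanx HZ is lowest, with a mean of -0.82.

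The question of how the same zone differs between a short and a long bone was addressed by the 1-week phalanx against the 1-week tibia. In the HZ, most sterol synthesis genes were lower in the phalanx in both species. In the mouse 17 of the 28 members were lower and 2 were higher at an adjusted p under 0.05 in limma, where 9.20% of all genes tested were lower and 9.77% higher. In the rat 13 of 27 were lower and 1 was higher, where 16.3% of all genes were lower and 19.7% higher. The median log2 fold change of the members was -1.18 in the mouse and -0.64 in the rat, against 0.13 over all genes tested in each. The lists of lower genes shared 11 genes, which were 64.7% of the mouse list and 84.6% of the rat list. They were Hmgcs1, Fdps, Sqle, Lss, Cyp51, Msmo1, Hsd17b7, Sc5d, Srebf2, Insig1 and Stard4. The share of each list that chance would give was not computed. Npc2 was higher in both species.

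**Figure D2:**
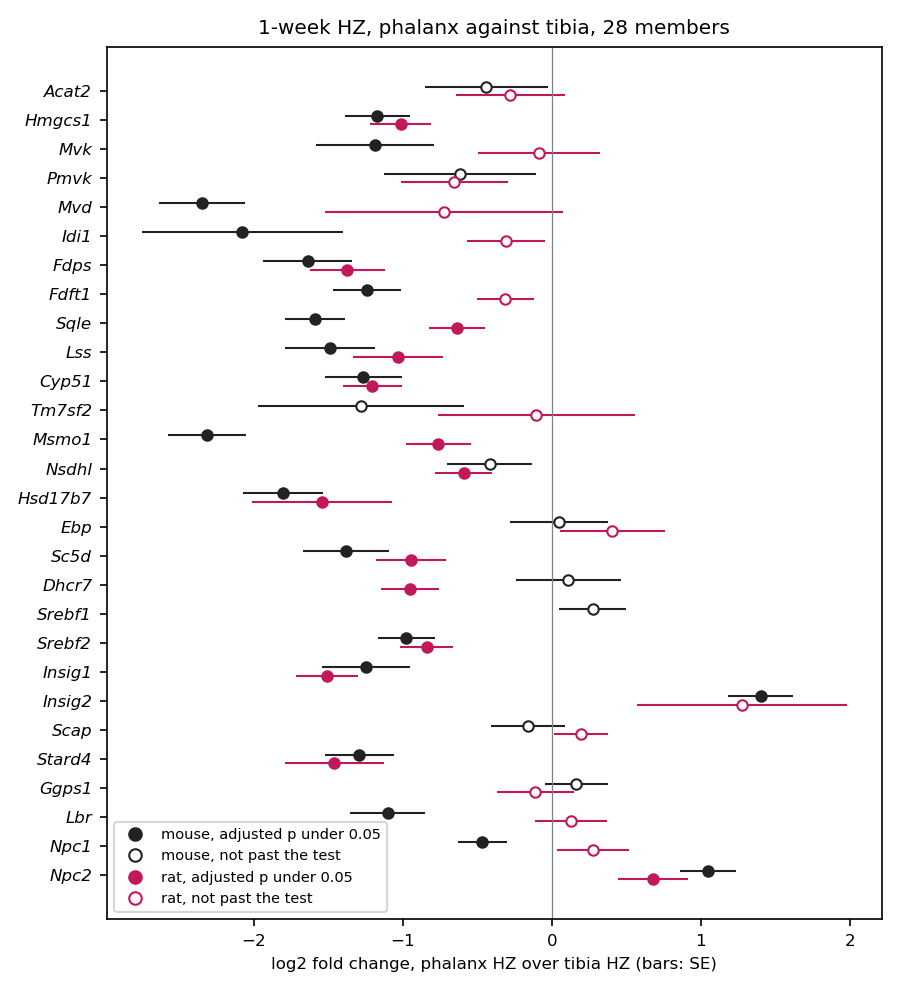
log2 fold change of each member in the 1-week phalanx HZ over the 1-week tibia HZ, with bars of 1 SE, in the mouse (black) and the rat (red). Filled points passed the test at an adjusted p under 0.05. Most points of the synthesis enzymes lie left of 0, and Npc2 lies right of 0 in both species.

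Of the early pathway, Hmgcs1 and Fdps were lower in both species. Hmgcs1 (chromosome 13, 119690351 to 119708260 on GRCm38) encodes the cytosolic synthase that joins acetoacetyl-CoA with acetyl-CoA. Its normalized counts in the mouse, in replicate order, were 677, 462, 412, 663 and 724 in the phalanx HZ and 2039.9, 632, 1750.3, 1207 and 1313 in the tibia HZ. Rat libraries measured 1982, 3275, 2937, 2178 and 2171 in the phalanx and 3378, 6502, 5936, 3963 and 5830.1 in the tibia. The rat groups did not overlap, while in the mouse tibia replicate 2 fell within the range of the phalanx. The log2 fold change was -1.17 ± 0.22 (SE, adjusted p = 0.00017) in the mouse and -1.01 ± 0.20 (SE, adjusted p = 0.00023) in the rat.

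Fdps (chromosome 3, 89093588 to 89101967) encodes the synthase of farnesyl diphosphate, the branch point between sterols and other isoprenoids. It measured 117, 91.0, 96.0, 72.7 and 260.4 in the mouse phalanx HZ and 488, 297, 498, 239 and 338 in the tibia HZ. The rat values were 1299, 1882, 1631, 1466 and 1129 in the phalanx and 2859, 4862, 5331, 2679.8 and 3858 in the tibia. Each rat phalanx library was below each tibia library, and in the mouse only phalanx replicate 5 reached the tibia range. The log2 fold change was -1.64 ± 0.30 (SE, adjusted p = 0.00015) in the mouse and -1.37 ± 0.25 (SE, adjusted p = 8.3e-05) in the rat.

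The other early genes passed in mouse libraries but not rat ones, or in neither species. Mvd, which makes isopentenyl diphosphate from mevalonate diphosphate, had the largest fall of the mouse members. It measured 68.5, 61.7, 39.7, 56.9 and 110.1 in the mouse phalanx HZ and 325, 256, 377, 574 and 213 in the tibia HZ, with no overlap, and changed by -2.35 ± 0.29 (SE, adjusted p = 3.4e-07) on the log2 scale. In the rat, where its normalized counts in the HZ libraries of both bones were between 5.33 and 154, its log2 fold change was -0.72 ± 0.80 (SE, adjusted p = 0.51). Mouse Mvk, Idi1 and Fdft1, for mevalonate kinase, isopentenyl diphosphate isomerase and squalene synthase, were lower at -1.19 ± 0.39 (SE, adjusted p = 0.032), -2.08 ± 0.67 (SE, adjusted p = 0.027) and -1.24 ± 0.23 (SE, adjusted p = 0.00016). The rat log2 fold changes were -0.09 ± 0.41 (SE, adjusted p = 0.89), -0.31 ± 0.26 (SE, adjusted p = 0.37) and -0.31 ± 0.19 (SE, adjusted p = 0.21). Mouse Mvk did not pass without 1-week phalanx HZ replicate 1 (adjusted p = 0.15), 1-week phalanx HZ replicate 3 (adjusted p = 0.11) or 1-week tibia HZ replicate 5 (adjusted p = 0.066). Mouse Idi1 did not pass without 1-week phalanx HZ replicate 3 (adjusted p = 0.13), 1-week tibia HZ replicate 1 (adjusted p = 0.074), 1-week tibia HZ replicate 2 (adjusted p = 0.057) or 1-week tibia HZ replicate 3 (adjusted p = 0.06). Acat2, the thiolase of the first step, and Pmvk, phosphomevalonate kinase, did not pass the test in either species (log2 fold changes of -0.44 and -0.62 in the mouse, -0.28 and -0.65 in the rat). Thus 6 of 8 early genes were lower in the mouse and 2 of 8 in the rat.

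Of the late pathway, 7 of 11 genes were lower in the mouse and 8 of 11 in the rat. Sqle (chromosome 15, 59315092 to 59331193) encodes squalene epoxidase, a control point of the sterol branch. Its normalized counts were 607, 294, 438, 288 and 477 in the mouse phalanx HZ and 1229, 1207, 1617, 843 and 1323 in the tibia HZ. Rat counts were 732, 1359, 1439, 985 and 895 in the phalanx and 1545, 1436, 1888, 1515 and 1803 in the tibia. The mouse groups did not overlap, and in the rat only phalanx replicate 3 reached the lowest tibia library. The log2 fold change was -1.59 ± 0.20 (SE, adjusted p = 5.6e-07) in the mouse and -0.64 ± 0.19 (SE, adjusted p = 0.0077) in the rat.

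Lss (chromosome 10, 76531565 to 76557139), the cyclase that makes lanosterol, measured 535, 246, 427, 287 and 1197 in the mouse phalanx HZ and 1915, 758, 2276, 1131 and 909 in the tibia HZ. The rat counts were 182, 358, 133, 352 and 287 in the phalanx and 563, 447, 655, 392 and 491 in the tibia. Rat phalanx and tibia did not overlap, and mouse phalanx replicate 5 lay above 3 of the 5 tibia libraries. The change was -1.49 ± 0.30 (SE, adjusted p = 0.00067) in the mouse and -1.03 ± 0.30 (SE, adjusted p = 0.0072) in the rat.

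Cyp51 (chromosome 5, 4080674 to 4104697), which removes the first methyl group of lanosterol, measured 653, 308, 331, 293 and 697 in the mouse phalanx HZ and 1333, 506, 1626, 689.7 and 1447 in the tibia HZ. Its rat values were 2046, 3113, 1854, 2544 and 2154 in the phalanx and 3951, 6244, 6336, 4578 and 5856 in the tibia. The rat groups were apart, and in the mouse phalanx replicates 1 and 5 lay above the lowest tibia library. The change was -1.26 ± 0.26 (SE, adjusted p = 0.0006) in the mouse and -1.20 ± 0.20 (SE, adjusted p = 1.9e-05) in the rat.

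Msmo1 (chromosome 8, 64718123 to 64733578), the methylsterol monooxygenase of the next demethylations, had the smallest adjusted p of the mouse members. It measured 117, 89.8, 175, 129.6 and 58.2 in the mouse phalanx HZ and 429, 343, 1077, 536 and 515 in the tibia HZ. In the rat it measured 748, 1774, 1224, 919 and 1185 in the phalanx and 1545, 2019, 2207, 1769.9 and 2032 in the tibia. Every mouse phalanx library was below every tibia library, whereas rat phalanx replicate 2 lay above 2 of the 5 tibia libraries. The change was -2.31 ± 0.26 (SE, adjusted p = 8.5e-08) in the mouse and -0.76 ± 0.22 (SE, adjusted p = 0.0068) in the rat.

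Hsd17b7 (chromosome 1, 169949535 to 169969242), the ketosteroid reductase of the same demethylation complex, measured 162, 133, 89.4, 177 and 345 in the mouse phalanx HZ and 419, 648, 756, 385 and 796 in the tibia HZ. In the rat, at low counts, it measured 47.2, 147, 10.8, 56.6 and 49.7 in the phalanx and 115, 168, 221, 111 and 105 in the tibia. The mouse groups did not overlap, and rat phalanx replicate 2 fell inside the tibia range. The change was -1.80 ± 0.27 (SE, adjusted p = 8.3e-06) in the mouse and -1.54 ± 0.47 (SE, adjusted p = 0.01) in the rat. Rat Hsd17b7 did not pass without 1-week phalanx HZ replicate 3 (adjusted p = 0.058).

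Sc5d (chromosome 9, 42251592 to 42264300), a sterol desaturase near the end of the pathway, measured 128, 179.6, 126, 117 and 236 in the mouse phalanx HZ and 733, 222, 560.5, 172 and 622 in the tibia HZ. Rat libraries measured 533, 1299, 700.0, 718 and 655 in the phalanx and 919.7, 1509, 1756, 1411 and 1735 in the tibia. Groups of both species overlapped, through tibia replicates 2 and 4 in the mouse and phalanx replicate 2 in the rat. The change was -1.38 ± 0.29 (SE, adjusted p = 0.00079) in the mouse and -0.94 ± 0.23 (SE, adjusted p = 0.002) in the rat. Lbr, a sterol reductase that is also a receptor of the nuclear lamina, was lower in the mouse (-1.10 ± 0.25 SE, adjusted p = 0.0019), with a rat value of 0.13 ± 0.24 (SE, adjusted p = 0.72). Nsdhl, which acts beside Msmo1, and Dhcr7, the last reductase of the pathway, passed the test in the rat and not in the mouse, at -0.59 ± 0.19 (SE, adjusted p = 0.014) and -0.95 ± 0.20 (SE, adjusted p = 0.00028), against -0.42 ± 0.28 (SE, adjusted p = 0.32) and 0.11 ± 0.35 (SE, adjusted p = 0.86) in the mouse. Rat Nsdhl did not pass without 1-week phalanx HZ replicate 1 (adjusted p = 0.06) or 1-week tibia HZ replicate 3 (adjusted p = 0.064). Whether these genes differ between the species was not tested. Ebp and Tm7sf2 passed in neither species, with log2 fold changes of 0.05 and -1.28 in the mouse and 0.41 and -0.10 in the rat.

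Of the regulators, Srebf2 and Insig1 were lower in both species. Srebf2 (chromosome 15, 82147269 to 82205379) measured 579, 661, 512, 532 and 1673 in the mouse phalanx HZ and 1363, 1350.4, 1440.2, 1198 and 1619.8 in the tibia HZ. The rat values were 1137, 1713, 816, 1275 and 1060.0 in the phalanx and 1893, 2348, 2708, 1455 and 2256 in the tibia. In the mouse 4 phalanx libraries lay far below the tibia and replicate 5, the library with raised PZ markers, lay above it. In the rat phalanx replicate 2 was inside the tibia range. The change was -0.97 ± 0.19 (SE, adjusted p = 0.00041) in the mouse and -0.84 ± 0.18 (SE, adjusted p = 0.00038) in the rat.

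Insig1 (chromosome 5, 28071412 to 28078662), a retention factor that is itself a target of the Srebp proteins, measured 401, 364, 379.9, 355 and 1132 in the mouse phalanx HZ and 1040.0, 762, 1808, 599.9 and 1957 in the tibia HZ. Rat counts were 1597, 3361, 2051, 2441 and 2445 in the phalanx and 4482, 7417, 7362, 5469 and 9164 in the tibia. All 5 rat phalanx libraries were below the tibia, as were 4 of 5 in the mouse, and replicate 5 was again high. The change was -1.25 ± 0.29 (SE, adjusted p = 0.0029) in the mouse and -1.51 ± 0.21 (SE, adjusted p = 1.1e-06) in the rat.

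Insig2, the other retention factor, ran the opposite way in the mouse. It measured 1139.8, 839, 809, 1203 and 677 in the phalanx HZ and 413, 354, 390.5, 293 and 291 in the tibia HZ, with no overlap, a change of 1.4002 ± 0.22 (SE, adjusted p = 1.5e-05). The rat value for Insig2 was 1.27 ± 0.70 (SE, adjusted p = 0.16) and did not pass. Mouse Srebf1 and Scap, the sterol sensor that carries the Srebp precursors, had log2 fold changes of 0.28 ± 0.22 (SE, adjusted p = 0.42) and -0.16 ± 0.25 (SE, adjusted p = 0.7), and rat Scap 0.20 ± 0.18 (SE, adjusted p = 0.41).

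Of the transport genes, Stard4 was lower and Npc2 higher in both species. Stard4 measured 171, 89.2, 208, 165 and 156 in the mouse phalanx HZ and 325, 344, 369.8, 385 and 454 in the tibia HZ. The rat counts were 338, 345, 153, 316 and 238 in the phalanx and 575, 926, 713, 729 and 770.4 in the tibia. Phalanx and tibia did not overlap in either species, and the change was -1.29 ± 0.23 (SE, adjusted p = 0.00012) in the mouse and -1.46 ± 0.33 (SE, adjusted p = 0.00092) in the rat.

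Npc2 (chromosome 12, 84754559 to 84773112) measured 2830.2, 2591, 3172, 4336 and 2178 in the mouse phalanx HZ and 1360.0, 1509.8, 1316, 1913 and 1127 in the tibia HZ. Its rat values were 1419, 705, 1159, 1131 and 1447 in the phalanx and 872, 559.7, 456, 1019.5 and 794 in the tibia. All mouse phalanx libraries were above the tibia, and rat phalanx replicate 2 was inside the tibia range. The change was 1.05 ± 0.19 (SE, adjusted p = 0.00011) in the mouse and 0.68 ± 0.23 (SE, adjusted p = 0.021) in the rat. Npc1, the membrane partner of Npc2, was lower in the mouse phalanx (-0.47 ± 0.16 SE, adjusted p = 0.043) with a rat value of 0.28 ± 0.24 (SE, adjusted p = 0.39). Rat Npc2 did not pass without 1-week phalanx HZ replicate 1 (adjusted p = 0.059), 1-week phalanx HZ replicate 5 (adjusted p = 0.065), 1-week tibia HZ replicate 2 (adjusted p = 0.061) or 1-week tibia HZ replicate 3 (adjusted p = 0.091). Mouse Npc1 did not pass in 5 of 10 fits that left out 1 library (adjusted p from 0.057 to 0.15). Ggps1, which makes the geranylgeranyl diphosphate used outside the sterol branch, did not pass in either species (log2 fold changes of 0.16 and -0.11).

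**Figure D3:**
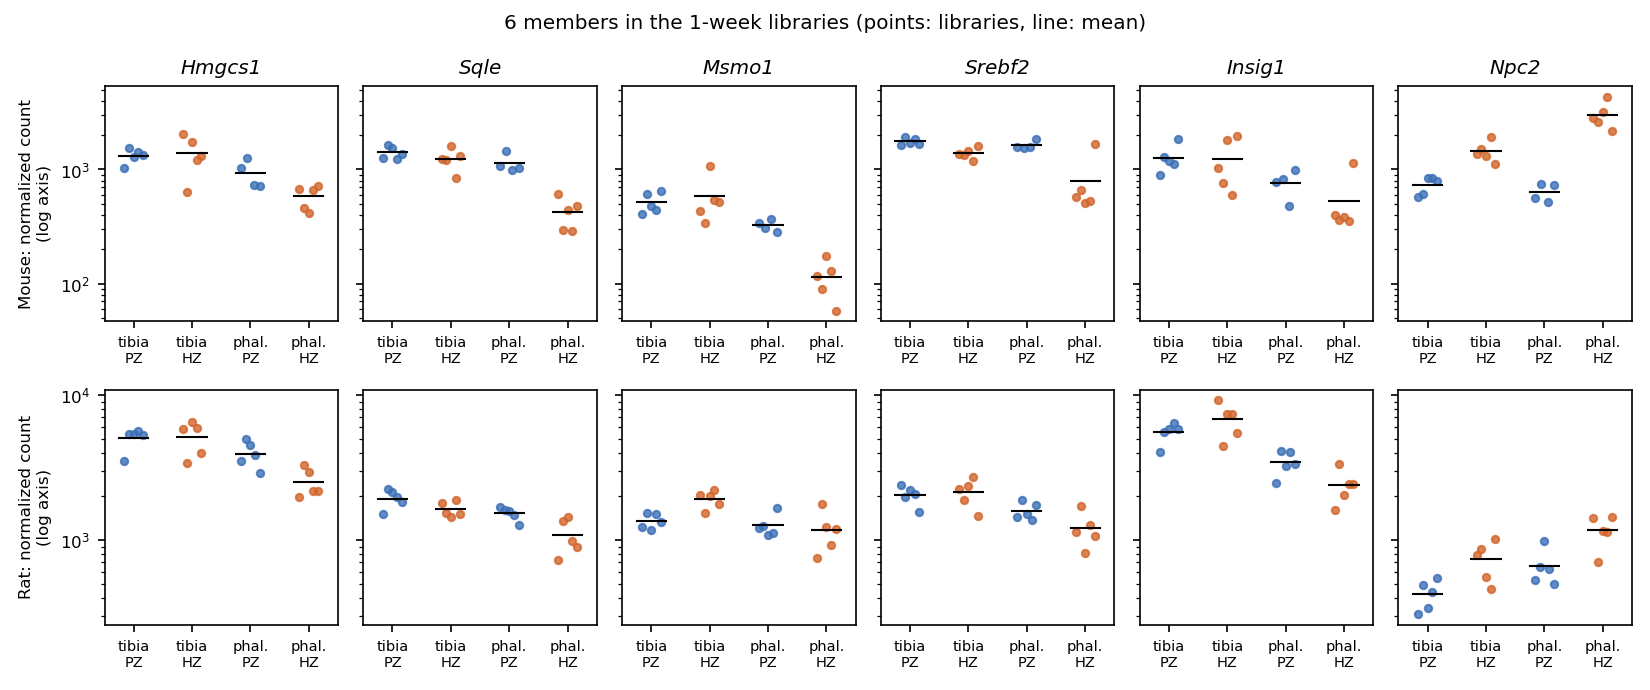
Normalized counts, on a log axis, of 6 members in each 1-week library of the mouse (top) and the rat (bottom). Points are libraries (PZ blue, HZ orange) and lines are group means. In the phalanx HZ the first 5 genes are low and Npc2 is high, and mouse phalanx HZ replicate 5 is the high point of Srebf2 and Insig1.

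The other genes of the pathway were taken from a list of 23 genes of cholesterol synthesis, uptake and Srebp processing. In the mouse 3 of 21 tested were lower and 1 was higher, and in the rat 8 of 19 were lower and 1 was higher. For this and the next 3 lists the background is the 9.20% lower and 9.77% higher of all mouse genes and the 16.3% lower and 19.7% higher of all rat genes, and with so few genes in a list nothing particular to it is read from its counts. Of 15 fatty acid synthesis genes, targets of Srebf1 in liver, 4 of 15 were lower and 1 higher in the mouse and 2 of 14 lower and 2 higher in the rat. Me1, the malic enzyme that supplies NADPH, was lower at -2.13 ± 0.27 (SE, adjusted p = 6.5e-07) and -0.97 ± 0.20 (SE, adjusted p = 0.00023). Of the genes of Lxr signaling, cholesterol efflux and esterification, 1 of 13 was lower and 0 were higher in the mouse, and 2 of 12 lower and 3 higher in the rat. Of 13 genes of endosomal and lysosomal sterol handling, 3 were higher and 0 lower in the mouse, and 4 higher and 4 lower in the rat.

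The captures of the HZ differed between the bones in cell type markers as well. Summed HZ marker counts were 162790 to 255172 in the mouse phalanx HZ and 193595 to 491077 in the tibia HZ, which overlapped. In the rat these sums were 276130 to 473444 and 49783 to 155446, with no overlap. All 8 chondrocyte markers, such as Col2a1 and Acan, were lower in the phalanx HZ than in the tibia HZ in both species, with a median log2 fold change of -2.01 in the mouse and -1.33 in the rat. Their summed normalized count was 119841 to 1035239 in the mouse phalanx HZ and 755792 to 1723358 in the tibia HZ. In the rat it was 1196111 to 2578257 and 2409356 to 4802322. Of the osteoclast markers, 3 of 7 were higher in the mouse phalanx HZ, with sums of 94228 to 204859 in the phalanx and 40669.8 to 79644 in the tibia. In the rat 3 of 4 were higher, with sums of 83017 to 143838 and 7187 to 56818. Macrophage markers passed as higher for 1 of 9 in the mouse, where their sums were 6455 to 14602 in the phalanx and 3947 to 5768 in the tibia. In the rat 6 of 9 passed, with sums of 9850.0 to 19699 and 2744 to 9499, and the sums of the bones did not overlap in either species. Of the osteoblast markers 0 of 8 passed in limma in the mouse and 2 had an unadjusted p under 0.05, with sums of 88807 to 761549 in the phalanx and 93104 to 242799.9 in the tibia. In the rat 4 of 7 osteoblast markers were higher, with sums of 470232 to 992592 and 169411 to 456795. Rat adipocyte markers were higher for 4 of 5 (sums of 599.6 to 930.4 and 69 to 147), and rat B lymphocyte markers for 3 of 7 (sums of 2178 to 3498 and 398 to 1203). For these 3 rat lists the sums of the bones did not overlap. In the mouse 0 of 5 adipocyte markers passed in limma and 0 had an unadjusted p under 0.05, and 1 of 10 B lymphocyte markers was lower. At 0 throughout a group of these HZ libraries were the adipocyte markers Cidec in the rat phalanx, Lep in the mouse phalanx and Retn in the mouse tibia, and the B lymphocyte marker Vpreb1 in both rat bones. The part of the HZ, osteoblast and adipocyte markers in the lower sterol genes was not tested.

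The phalanx HZ library with the most chondrocyte marker counts was replicate 5 in the mouse and replicate 2 in the rat, and each also had the highest module score of its group. When the mean log2 level of the chondrocyte markers was added to the model as a covariate, an alternative chosen after seeing the data, 5 mouse members were called. Msmo1, Mvd and Sqle were lower and Insig2 and Srebf1 higher. In the rat 0 members were called in that limma fit, and 4 had an unadjusted p under 0.05. The direction turned for rat Msmo1, Nsdhl, Sc5d, Dhcr7, Sqle and Npc2 and for mouse Insig1. Since the chondrocyte markers themselves differ between the bones, their part in the lower sterol genes cannot be told apart from that of the bone in this fit. With scores of osteoclast, endothelial and macrophage markers as covariates, also chosen after seeing the data, 13 mouse members were lower and 2 higher. In the rat 1 was lower and 0 higher, 4 had an unadjusted p under 0.05, and the direction turned for Lss and Nsdhl. With B lymphocyte, erythroid and neutrophil scores instead, 14 were lower and 2 higher in the mouse and 10 lower and 0 higher in the rat. Without mouse phalanx HZ replicate 5 the mouse counts were 17 lower and 2 higher. With a 2-fold minimum added to the call, 7 rat members were lower and 0 higher. For these alternatives the share of all genes called was not computed, so the counts are not read as particular to these genes.

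**Figure D4:**
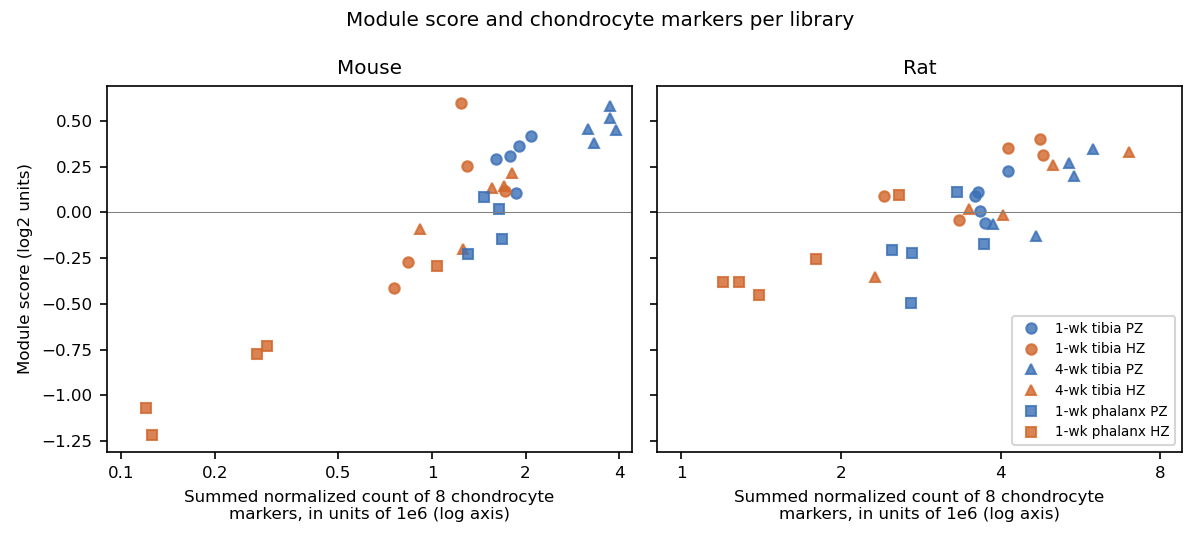
Module score of each library against the summed normalized count of 8 chondrocyte markers, in units of 1e6 on a log axis, in the mouse (left) and the rat (right). Circles are the 1-week tibia, triangles the 4-week tibia and squares the 1-week phalanx (PZ blue, HZ orange). In the mouse 4 of the 5 phalanx HZ libraries are low in both measures.

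The promoters of these genes are shown because sterol genes are known to be switched together through a sterol regulatory element (SRE) bound by the Srebp proteins, beside a box for the factor NF-Y. The windows cover the 250 bases before the RefSeq start of the mouse gene on GRCm38.p6, written on the strand of the gene, with SRE and NF-Y matches in capitals. Hmgcs1 is given as the only member window with an SRE match, Msmo1 and Srebf2 as members lower in both species, and Npc2 as the member that was higher. Hmgcs1 lies at chr13:119690101-119690350 on the plus strand, Msmo1 at chr8:64733579-64733828 on the minus strand, Srebf2 at chr15:82147019-82147268 on the plus strand and Npc2 at chr12:84773113-84773362 on the minus strand.
Hmgcs1: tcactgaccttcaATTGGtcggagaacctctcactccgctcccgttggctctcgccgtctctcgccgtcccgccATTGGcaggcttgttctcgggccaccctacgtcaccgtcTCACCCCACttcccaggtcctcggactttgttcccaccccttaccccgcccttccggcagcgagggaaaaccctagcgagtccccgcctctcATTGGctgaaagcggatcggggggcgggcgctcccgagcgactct
Msmo1: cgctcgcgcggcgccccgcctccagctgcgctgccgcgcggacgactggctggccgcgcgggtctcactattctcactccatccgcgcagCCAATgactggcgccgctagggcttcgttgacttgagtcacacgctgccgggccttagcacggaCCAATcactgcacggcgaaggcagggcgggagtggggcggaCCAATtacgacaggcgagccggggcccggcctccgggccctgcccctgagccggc
Srebf2: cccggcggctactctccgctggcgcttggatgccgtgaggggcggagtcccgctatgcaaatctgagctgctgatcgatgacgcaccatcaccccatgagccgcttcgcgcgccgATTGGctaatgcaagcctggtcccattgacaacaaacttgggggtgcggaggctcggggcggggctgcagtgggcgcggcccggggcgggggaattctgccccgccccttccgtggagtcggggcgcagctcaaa
Npc2: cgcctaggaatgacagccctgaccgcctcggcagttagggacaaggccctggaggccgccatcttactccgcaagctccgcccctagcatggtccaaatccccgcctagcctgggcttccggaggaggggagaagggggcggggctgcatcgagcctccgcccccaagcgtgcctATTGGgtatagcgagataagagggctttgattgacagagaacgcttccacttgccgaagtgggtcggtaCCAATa

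Of the 28 members 23 had a window in the RefSeq table. Fdps, Fdft1, Sqle, Stard4 and Npc1 had none and were not searched. Only the exact letters of each motif were searched, so a variant of a site would not be found. Searched on both strands, the SRE letters TCACNCCAC were found in 1 of the 23, Hmgcs1, from 137 to 129 bases before the start, and in 1.22% of the 27025 genes with a window. The E-box-like letters TCACNTGA were found in 1 of the 23, Insig2, and in 3.98% of all genes. The NF-Y box CCAAT was found in 21 of the 23, and in 37.5% of all genes and 39.7% of the 11369 genes that had a window and were tested in the mouse. The Sp1 box GGGCGG was also found in 21 of the 23, and in 35.4% of all genes and 60.9% of the tested genes. In the windows shown, the NF-Y box occurs 3 times in Hmgcs1 and in Msmo1, 1 time in Srebf2 and 2 times in Npc2. These are matches of letters and not measured sites, and their part in the changes of these genes was not tested.

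Within the phalanx, the HZ was compared with the PZ. In the mouse 16 of the 28 members were lower in the HZ and 2 were higher, where 17.2% of all genes were lower and 17.9% higher. In the rat 6 of 27 were lower and 4 higher, where 17.7% were lower and 22.9% higher. The members' median log2 fold change was -1.03 in the mouse and -0.28 in the rat, against -0.04 and 0.08 over all genes. This comparison uses the same phalanx HZ libraries as the comparison of bones. Hmgcs1, Sqle, Cyp51, Srebf2 and Stard4 were lower in both species, 31.2% of the mouse list and 83.3% of the rat list, and Npc2 was higher in both. The overlap that chance would give was not computed. Beside the shares of all genes, nothing particular to the members is read from the rat counts.

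Sqle measured 1081, 1448, 981 and 1037 in the mouse phalanx PZ and 1692, 1615, 1597, 1485 and 1278 in the rat phalanx PZ, to be read beside the HZ counts above. All mouse HZ libraries were below the PZ and the rat zones overlapped. The change in the HZ was -1.47 ± 0.21 (SE, adjusted p = 2e-06) in the mouse and -0.54 ± 0.19 (SE, adjusted p = 0.019) in the rat. Rat Sqle did not pass without 1-week phalanx HZ replicate 1 (adjusted p = 0.083) or 1-week phalanx HZ replicate 5 (adjusted p = 0.054).

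Cyp51 measured 835, 896, 782 and 1009.5 in the mouse phalanx PZ and 3868, 5902, 3647, 5129.6 and 3106 in the rat. The mouse zones did not overlap, and in the rat only HZ replicate 2 reached the lowest PZ library. The change was -1.05 ± 0.27 (SE, adjusted p = 0.0029) and -0.87 ± 0.20 (SE, adjusted p = 0.00072).

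Hmgcs1 measured 1027, 1250.5, 731 and 717 in the mouse phalanx PZ and 3496, 4945, 4529, 3863 and 2895 in the rat. Zones of both species overlapped at the low end of the PZ. The change was -0.66 ± 0.23 (SE, adjusted p = 0.024) and -0.66 ± 0.20 (SE, adjusted p = 0.01). Mouse Hmgcs1 did not pass without 1-week phalanx HZ replicate 2 (adjusted p = 0.064), 1-week phalanx HZ replicate 3 (adjusted p = 0.079), 1-week phalanx PZ replicate 1 (adjusted p = 0.071) or 1-week phalanx PZ replicate 2 (adjusted p = 0.12).

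Srebf2 measured 1587, 1530.1, 1559 and 1832 in the mouse phalanx PZ and 1438, 1891, 1516, 1377 and 1745 in the rat. In the mouse 4 HZ libraries were below the PZ and replicate 5 was within it, and in the rat replicate 2 was within it. The change was -1.20 ± 0.21 (SE, adjusted p = 2.2e-05) and -0.44 ± 0.18 (SE, adjusted p = 0.045). Rat Srebf2 did not pass in 6 of 10 fits that left out 1 library (adjusted p from 0.056 to 0.17).

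Stard4 measured 264, 476, 194 and 219 in the mouse phalanx PZ and 762, 915, 825, 818 and 159 in the rat, where replicate 5 was far below the other 4 PZ libraries. Zones overlapped in the mouse through HZ replicate 3 and in the rat through that PZ library. The change was -0.83 ± 0.25 (SE, adjusted p = 0.0082) and -1.16 ± 0.33 (SE, adjusted p = 0.0056). Mouse Stard4 did not pass without 1-week phalanx PZ replicate 2 (adjusted p = 0.082).

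Npc2 measured 561, 746, 524 and 731 in the mouse phalanx PZ and 528, 653, 977, 629 and 498 in the rat. The mouse zones were far apart and the rat zones overlapped. The change was 2.21 ± 0.20 (SE, adjusted p = 5.4e-10) and 0.83 ± 0.23 (SE, adjusted p = 0.0043).

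Of the remaining members, Acat2, Mvk, Pmvk, Mvd, Fdps, Fdft1, Lss, Msmo1, Hsd17b7, Sc5d and Srebf1 passed as lower in the mouse phalanx HZ and not in the rat, where Srebf1 was not among the genes tested, with log2 fold changes from -2.12 (Acat2) to -0.83 (Fdft1). The difference between the species was not tested. Mouse Mvk did not pass in 6 of 9 fits that left out 1 library (adjusted p from 0.052 to 0.2). Mouse Pmvk did not pass without 1-week phalanx HZ replicate 5 (adjusted p = 0.077), 1-week phalanx PZ replicate 2 (adjusted p = 0.058) or 1-week phalanx PZ replicate 4 (adjusted p = 0.067). Insig2 was the other member higher there, at 2.05 ± 0.23 (SE, adjusted p = 2.6e-08). In the rat Insig1 was lower (-0.55 ± 0.21 SE, adjusted p = 0.033), and Npc1, Nsdhl and Scap were higher (0.79 ± 0.24 SE, adjusted p = 0.0081, 0.46 ± 0.19 SE, adjusted p = 0.049 and 1.05 ± 0.18 SE, adjusted p = 2e-05). Rat Insig1 did not pass without 1-week phalanx HZ replicate 1 (adjusted p = 0.12), 1-week phalanx HZ replicate 3 (adjusted p = 0.071), 1-week phalanx PZ replicate 2 (adjusted p = 0.086) or 1-week phalanx PZ replicate 4 (adjusted p = 0.083). Rat Nsdhl did not pass in 7 of 10 fits that left out 1 library (adjusted p from 0.083 to 0.12). Insig1 in the mouse and Insig2 in the rat had log2 fold changes of -0.66 ± 0.31 (SE, adjusted p = 0.099) and 1.02 ± 0.70 (SE, adjusted p = 0.26), and mouse Scap -0.40 ± 0.26 (SE, adjusted p = 0.25). Rat Scap had no overlap between the zones, with 1556, 1860.5, 1681, 1794 and 1958 in the HZ and 923, 946, 1008, 679.7 and 757 in the PZ.

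Markers of other cells were higher in the same comparison. All 7 osteoclast markers and 6 of 7 endothelial markers were higher in the mouse phalanx HZ than in the PZ, and all 4 and 6 of 7 in the rat. Osteoblast markers were higher for 3 of 8 in the mouse and 5 of 7 in the rat. All 8 chondrocyte markers were lower in the mouse and 6 of 8 in the rat. Summed osteoclast marker counts were 94228 to 204859 in the mouse HZ and 4685 to 14143 in the PZ, and 83017 to 143838 and 3841 to 22097 in the rat. With the chondrocyte score as a covariate 4 mouse and 3 rat members were called, and with the osteoclast, endothelial and macrophage scores 1 and 3, both chosen after seeing the data. The direction turned with the chondrocyte score for mouse Cyp51, Fdft1, Fdps, Hmgcs1, Hsd17b7 and Lss, with either set of scores for rat Insig1 and Srebf2, and with the osteoclast, endothelial and macrophage scores for rat Hmgcs1. Without mouse phalanx HZ replicate 5, 17 mouse members were lower and 2 higher. No share of all genes called was computed for these alternatives.

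In the fit of all groups, fewer members were called between the zones in the tibia than in the phalanx. Beside the shares of all genes, nothing particular to the members is read from the tibia counts. At 1 week 3 mouse members were lower in the HZ and 3 higher, where 23.7% of all genes were lower and 20.4% higher. In the rat 1 was lower and 6 higher, where 19.0% were lower and 22.6% higher. Each fit that left out 1 library called fewer rat members, between 3 and 5, with 3 without HZ replicate 4 or PZ replicate 5 and 4 without HZ replicates 1 or 3 or PZ replicates 2 or 4. At 4 weeks 5 mouse members were lower and 3 higher, where 16.6% were lower and 18.6% higher, and 1 rat member was lower and 1 higher, where 7.82% were lower and 13.5% higher. The members' median log2 fold changes were -0.23 and -0.43 in the mouse at 1 and 4 weeks, against -0.15 and -0.03 over all genes. The rat medians were 0.16 and -0.06, against 0.01 at both ages. When only the groups compared entered the fit, 15 mouse members were lower at 4 weeks and 3 higher. With a replicate block added to that fit, more mouse members were called at 4 weeks than in the phalanx. The mouse order of 4-week tibia and phalanx thus depended on the fit. The share of all genes called was not computed for these fits.

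Of the endosomal genes, Npc2 was higher in the tibia HZ of both species at both ages, and Npc1 at 1 week. Npc2 in the 1-week tibia PZ measured 575, 605, 847, 843 and 799 in the mouse and 307, 489, 338, 441 and 548 in the rat. In the HZ, given above, all mouse libraries were higher than this and in the rat 4 of 5 were above every PZ library. The change was 0.97 ± 0.19 (SE, adjusted p = 6.8e-05) and 0.77 ± 0.23 (SE, adjusted p = 0.0074).

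At 4 weeks Npc2 measured 911, 1071, 933, 896 and 1090.3 in the mouse PZ and 1821, 2636, 1558, 1169.9 and 1426 in the HZ. Rat libraries measured 460.1, 577, 472, 575 and 405 for the PZ and 1974, 1187, 900.3, 1116 and 1171 for the HZ. The zones did not overlap in either species, and the change was 0.76 ± 0.19 (SE, adjusted p = 0.0015) and 1.31 ± 0.23 (SE, adjusted p = 8.8e-05).

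Npc1 at 1 week measured 865, 1016, 977, 878 and 956 in the mouse PZ and 1973, 876, 1792, 1649 and 1426 in the HZ. The rat values were 532, 328, 520.4, 354 and 392 for the PZ and 813, 436, 505, 839 and 713 for the HZ. In the mouse 4 of 5 HZ libraries were above the PZ and replicate 2 was within it, and the rat zones overlapped. The change was 0.67 ± 0.16 (SE, adjusted p = 0.0012) and 0.62 ± 0.24 (SE, adjusted p = 0.037) at 1 week, and -0.29 ± 0.16 (SE, adjusted p = 0.18) and 0.41 ± 0.24 (SE, adjusted p = 0.25) at 4 weeks. Rat Npc1 did not pass in 6 of 10 fits that left out 1 library (adjusted p from 0.067 to 0.1).

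Lss was lower in the 4-week tibia HZ in both species. It measured 1681, 1647, 1703, 1454 and 1742 in the mouse PZ and 504, 561, 798, 849 and 675 in the HZ, with no overlap. Rat counts were 503, 692, 522, 386 and 484 for the PZ and 218, 221, 433, 289 and 305 for the HZ, where HZ replicate 3 was within the PZ range. The change was -1.30 ± 0.30 (SE, adjusted p = 0.001) and -0.84 ± 0.30 (SE, adjusted p = 0.042). Rat Lss did not pass in 8 of 10 fits that left out 1 library (adjusted p from 0.059 to 0.12). Without rat 4-week tibia HZ replicate 3, the library with raised PZ markers, 3 rat members were lower in the HZ and 1 higher, as they were without PZ replicate 4.

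The member that marked the PZ most firmly was mouse Srebf1, the Srebp gene best known for fatty acid synthesis. It measured 1341, 1424, 1526, 1398 and 1483 in the 1-week tibia PZ and 384, 344, 512, 333 and 263 in the HZ. At 4 weeks it measured 1620.3, 1693, 1964, 1898 and 1880.2 for the PZ and 298, 349.9, 242, 357 and 418 for the HZ. In the phalanx it measured 1709.7, 1254, 1459 and 1813 for the PZ and 556, 324, 256, 359.8 and 930.3 for the HZ. The zones did not overlap in any of the 3 growth plates, and the changes were -1.995 ± 0.22 (SE, adjusted p = 8.1e-09), -2.46 ± 0.22 (SE, adjusted p = 1.5e-10) and -1.83 ± 0.24 (SE, adjusted p = 3.5e-07). Of the fatty acid synthesis genes, 10 of 15 were lower in the HZ of the 1-week mouse tibia, 9 of 15 in the 4-week tibia and 9 of 15 in the phalanx, where 23.7%, 16.6% and 17.2% of all genes were lower. In the rat the counts were 6, 6 and 5 of 14, where 19.0%, 7.82% and 17.7% were lower. In the phalanx 1 of these genes was higher in the mouse HZ and 2 in the rat HZ, and in the tibia 0 were higher. In the 1-week tibia Elovl6, a fatty acid elongase, was lower at -2.63 ± 0.24 (SE, adjusted p = 1.4e-10) in the mouse and -2.87 ± 0.62 (SE, adjusted p = 0.00034) in the rat.

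Acat2 was the other mouse gene high in every PZ. It measured 303, 322, 293, 366 and 318 in the 1-week tibia PZ and 152, 63.0, 246, 18.9 and 78.1 in the HZ, and no growth plate had overlapping zones. The changes were -1.96 ± 0.41 (SE, adjusted p = 0.00021) at 1 week, -1.87 ± 0.41 (SE, adjusted p = 0.00047) at 4 weeks and -2.12 ± 0.44 (SE, adjusted p = 0.00025) in the phalanx. Rat Acat2 had log2 fold changes of -0.09 ± 0.36 (SE, adjusted p = 0.87), -0.73 ± 0.36 (SE, adjusted p = 0.16) and -0.11 ± 0.36 (SE, adjusted p = 0.84), none past the test. Mouse Dhcr7 was lower in the HZ of the tibia at both ages (-1.27 ± 0.35 SE, adjusted p = 0.0043 and -0.99 ± 0.35 SE, adjusted p = 0.029). Mouse Dhcr7 did not pass without 4-week tibia HZ replicate 1 (adjusted p = 0.078), 4-week tibia HZ replicate 3 (adjusted p = 0.095), 4-week tibia PZ replicate 3 (adjusted p = 0.06) or 4-week tibia PZ replicate 4 (adjusted p = 0.051).

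Mouse Insig2 was high in every HZ. It measured 151, 164, 141, 210.3 and 208 in the 1-week tibia PZ and 413, 354, 390.5, 293 and 291 in the HZ. At 4 weeks it measured 341, 360.2, 246, 317 and 261 for the PZ and 796, 701, 749, 456 and 682 for the HZ, and the zones did not overlap at either age. The changes were 1.00 ± 0.22 (SE, adjusted p = 0.00033) and 1.14 ± 0.22 (SE, adjusted p = 8.5e-05). In the rat Insig2 was lower in the HZ at 1 week (-1.76 ± 0.70 SE, adjusted p = 0.044). The PZ libraries measured 110.0, 141, 153, 148 and 125 and the HZ libraries 48.2, 36.3, 6.7, 45.6 and 154, so that HZ replicate 5 lay just above the PZ and the other 4 below it. At 4 weeks its change was 0.05 ± 0.70 (SE, adjusted p = 0.98). Rat Insig2 did not pass in 9 of 10 fits that left out 1 library (adjusted p from 0.055 to 0.18).

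Rat Scap was higher in the 1-week tibia HZ. The PZ libraries measured 1175, 777, 957, 800.3 and 897 and those of the HZ 1213, 1666, 1984, 1349.9 and 1601, with no overlap and a change of 0.76 ± 0.18 (SE, adjusted p = 0.00091). At 4 weeks its log2 fold change was 0.33 ± 0.18 (SE, adjusted p = 0.2), and those of mouse Scap were -0.25 ± 0.25 (SE, adjusted p = 0.45) and -0.61 ± 0.25 (SE, adjusted p = 0.054). Srebf2 did not pass between the zones of the tibia, at -0.34 ± 0.19 (SE, adjusted p = 0.16) and -0.43 ± 0.19 (SE, adjusted p = 0.084) in the mouse and 0.05 ± 0.18 (SE, adjusted p = 0.86) and -0.24 ± 0.18 (SE, adjusted p = 0.38) in the rat. Nor did Insig1, at -0.15 ± 0.29 (SE, adjusted p = 0.72) and -0.72 ± 0.29 (SE, adjusted p = 0.055) in the mouse and 0.27 ± 0.21 (SE, adjusted p = 0.31) and -0.22 ± 0.21 (SE, adjusted p = 0.51) in the rat. The other members past the test were mouse Fdps (lower) and Lbr (higher) at 4 weeks, at -1.02 ± 0.30 (SE, adjusted p = 0.0076) and 0.85 ± 0.25 (SE, adjusted p = 0.0081), and rat Mvk, Nsdhl and Hsd17b7 (higher) at 1 week, at 1.07 ± 0.41 (SE, adjusted p = 0.034), 0.64 ± 0.19 (SE, adjusted p = 0.0066) and 1.14 ± 0.47 (SE, adjusted p = 0.0497). Rat Mvk did not pass in 5 of 10 fits that left out 1 library (adjusted p from 0.05003 to 0.15). Rat Hsd17b7 did not pass in 8 of 10 fits that left out 1 library (adjusted p from 0.054 to 0.12).

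In the tibia too, markers of osteoclasts and vessels were higher in the HZ, with 6 of 7 endothelial markers higher at each age in both species. The other endothelial marker of the mouse, Vwf, was lower at 1 week (a log2 change of -2.29 ± 0.61 SE, adjusted p = 0.0024). Osteoblast markers were higher for 3 of 8 and lower for 1 in the mouse at 1 week, higher for 2 and lower for 1 at 4 weeks, and higher for 4 of 7 and 5 of 7 in the rat. Of the 8 chondrocyte markers, 5 were lower in the mouse HZ at 1 week and 7 at 4 weeks, and 2 and 4 in the rat. Summed macrophage markers were 3947 to 5768 in the 1-week mouse HZ and 393 to 1364 in the PZ, and 2744 to 9499 and 383 to 702 in the rat. Their part in the higher Npc2 was not tested beyond the fits with marker scores that follow. With the osteoclast, endothelial and macrophage scores as covariates, chosen after seeing the data, 0 mouse members were called in limma at 1 week and 1 at 4 weeks, with 3 and 2 at an unadjusted p under 0.05. The share of all genes called with these scores was not computed. The direction turned for mouse Fdps at 4 weeks and for rat Npc2 at 1 week.

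**Figure D5:**
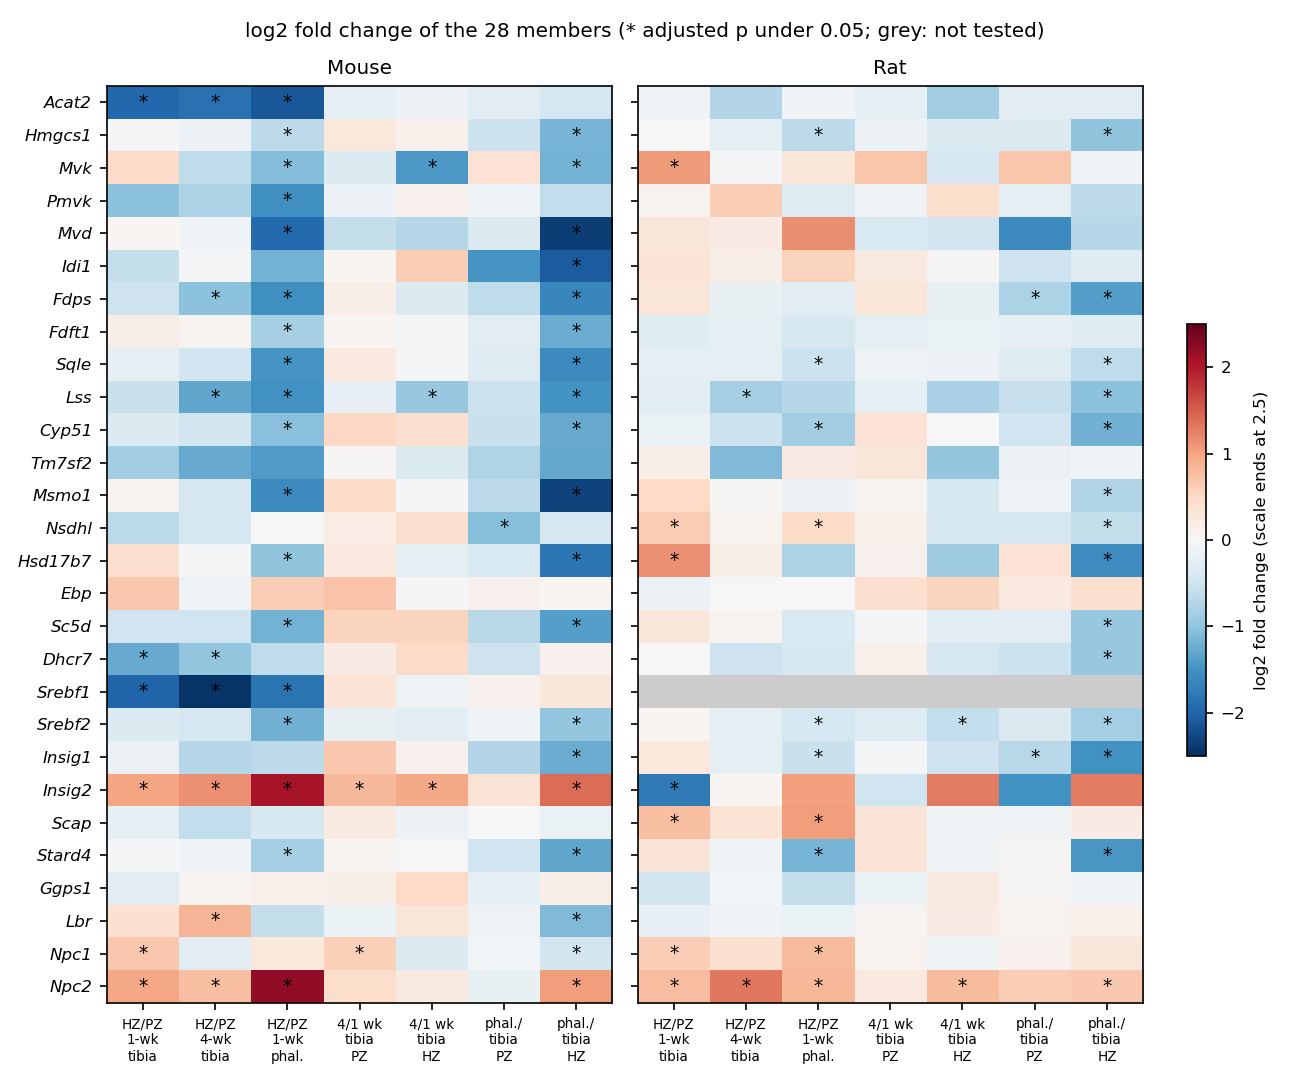
log2 fold change of the 28 members in the 7 comparisons of groups in the mouse (left) and the rat (right). Stars mark an adjusted p under 0.05, and grey marks rat Srebf1, which was not tested. The column of the phalanx HZ over the tibia HZ (rightmost) has 19 stars in the mouse and 14 in the rat.

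Few members were called with age in the tibia, and beside the shares of all genes nothing particular to them is read from these counts. From 1 to 4 weeks in the mouse PZ 2 members were higher and 0 lower, where 5.19% of all genes were higher and 3.39% lower. In the mouse HZ 1 was higher and 2 lower, where 8.83% were higher and 6.72% lower. In the rat PZ 0 members were called in limma, 0 had an unadjusted p under 0.05, and 9.63% of all genes were higher and 6.45% lower. In the rat HZ 1 was higher and 1 lower, where 6.68% were higher and 7.06% lower. The median log2 fold changes of the members were 0.19 in the mouse PZ, -0.03 in the mouse HZ, 0.08 in the rat PZ and -0.18 in the rat HZ. Over all genes they were 0.06, 0.17, 0.04 and 0.09. When only the groups compared entered the fit, 9 mouse members were higher in the PZ at 4 weeks and 1 was lower. The shares above are not those of that fit, for which none was computed.

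Insig2 was higher at 4 weeks in both mouse zones. The counts given above did not overlap between the ages in the PZ or in the HZ, and the changes were 0.80 ± 0.22 (SE, adjusted p = 0.015) in the PZ and 0.95 ± 0.22 (SE, adjusted p = 0.0028) in the HZ. Rat Insig2 had log2 fold changes of -0.50 ± 0.70 (SE, adjusted p = 0.7) and 1.31 ± 0.70 (SE, adjusted p = 0.21). Npc1 was higher in the mouse PZ at 4 weeks, where it measured 1391, 1211, 1585, 1484 and 1421, a change of 0.59 ± 0.16 (SE, adjusted p = 0.018) with no overlap. Mvk and Lss were lower in the 4-week mouse HZ, at -1.43 ± 0.39 (SE, adjusted p = 0.012) and -0.94 ± 0.30 (SE, adjusted p = 0.031). Mvk measured 174, 240.4, 175, 126 and 168 there and 456, 402, 471, 439 and 597 at 1 week, with no overlap. Mouse Insig2 did not pass without 1-week tibia PZ replicate 3 (adjusted p = 0.052). Mouse Npc1 did not pass without 1-week tibia PZ replicate 1 (adjusted p = 0.054) or 4-week tibia PZ replicate 3 (adjusted p = 0.06). Mouse Lss did not pass in 5 of 10 fits that left out 1 library (adjusted p from 0.053 to 0.093). Without 1-week tibia HZ replicate 2, 2 mouse members were higher and 3 lower in the HZ.

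In the rat HZ Srebf2 was lower at 4 weeks, where it measured 1208, 1206, 1696, 1152 and 1688, a change of -0.61 ± 0.18 (SE, adjusted p = 0.019). Npc2 was higher, at 0.79 ± 0.23 (SE, adjusted p = 0.02). For both genes the ages overlapped. Rat Srebf2 did not pass without 1-week tibia HZ replicate 3 (adjusted p = 0.073), 4-week tibia HZ replicate 1 (adjusted p = 0.054), 4-week tibia HZ replicate 2 (adjusted p = 0.052) or 4-week tibia HZ replicate 4 (adjusted p = 0.056). Rat Npc2 did not pass without 1-week tibia HZ replicate 2 (adjusted p = 0.057), 1-week tibia HZ replicate 3 (adjusted p = 0.086) or 4-week tibia HZ replicate 1 (adjusted p = 0.091). Without rat 4-week tibia HZ replicate 3, 4 members were lower and 1 higher in that comparison, as they were without 1-week tibia HZ replicate 4. Srebf1, Insig1 and Scap did not pass with age in either species where they were tested, nor did Srebf2 in the mouse or in the rat PZ. Srebf1 had log2 fold changes of 0.33 ± 0.22 (SE, adjusted p = 0.44) in the mouse PZ and -0.13 ± 0.22 (SE, adjusted p = 0.74) in the HZ. Srebf2 had log2 fold changes of -0.18 ± 0.19 (SE, adjusted p = 0.68) and -0.27 ± 0.19 (SE, adjusted p = 0.37) in the mouse zones and of -0.32 ± 0.18 (SE, adjusted p = 0.24) in the rat PZ. Insig1 had log2 fold changes of 0.67 ± 0.29 (SE, adjusted p = 0.17) and 0.10 ± 0.29 (SE, adjusted p = 0.86) in the mouse and -0.02 ± 0.21 (SE, adjusted p = 0.96) and -0.52 ± 0.21 (SE, adjusted p = 0.092) in the rat. Scap had log2 fold changes of 0.22 ± 0.25 (SE, adjusted p = 0.69) and -0.14 ± 0.25 (SE, adjusted p = 0.76) in the mouse and 0.32 ± 0.18 (SE, adjusted p = 0.25) and -0.10 ± 0.18 (SE, adjusted p = 0.74) in the rat. The age and bone comparisons share the 1-week tibia libraries, so they are not independent of each other.

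In the PZ few members were called between the bones, and beside the shares of all genes nothing particular to them is read from these counts. In the mouse 1 was lower in the phalanx and 0 higher, where 1.86% of all genes were lower and 3.23% higher. In the rat 2 were lower and 0 higher, where 3.67% were lower and 6.77% higher. The members' median log2 fold change was -0.34 in the mouse and -0.26 in the rat, against 0.01 and 0.03 over all genes. The called genes were mouse Nsdhl (-1.07 ± 0.30 SE, adjusted p = 0.031) and rat Fdps and Insig1 (-0.79 ± 0.25 SE, adjusted p = 0.037 and -0.69 ± 0.21 SE, adjusted p = 0.029). Nsdhl measured 238, 238, 189 and 175 in the mouse phalanx PZ and 398, 484, 427, 431 and 447 in the tibia PZ, with no overlap. Rat Fdps measured 1218, 2781, 2103, 2441 and 995 in the phalanx PZ and 2305, 3184, 3117, 4077 and 2910.0 in the tibia PZ. Rat Insig1 measured 2483, 4104, 3225, 4052 and 3343 in the phalanx PZ and 4017, 5516, 5840.1, 6402 and 5796 in the tibia PZ. The bones overlapped for both rat genes. Mouse Nsdhl did not pass in 5 of 9 fits that left out 1 library (adjusted p from 0.054 to 0.097). Rat Fdps did not pass in 6 of 10 fits that left out 1 library (adjusted p from 0.057 to 0.14). Rat Insig1 did not pass in 7 of 10 fits that left out 1 library (adjusted p from 0.053 to 0.097). With B lymphocyte, erythroid and neutrophil scores as covariates the direction turned for rat Fdps. The rat count was 4 without phalanx PZ replicate 2. When only the groups compared entered the fit, 7 mouse members were lower in the phalanx PZ. The share of all genes in that fit was not computed.

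Whether the bone difference was larger in the HZ than in the PZ was tested as a difference of the differences. In the mouse 5 members had a more negative bone difference in the HZ and 2 a more positive one, where 6.19% of all genes were more negative and 4.38% more positive. The 5 were Mvd (-1.98 ± 0.42 SE, adjusted p = 0.0019), Msmo1 (-1.65 ± 0.38 SE, adjusted p = 0.0043), Hsd17b7 (-1.43 ± 0.39 SE, adjusted p = 0.015), Sqle (-1.27 ± 0.29 SE, adjusted p = 0.0042) and Srebf2 (-0.86 ± 0.28 SE, adjusted p = 0.044). The 2 were Npc2 (1.24 ± 0.27 SE, adjusted p = 0.0026) and Insig2 (1.06 ± 0.32 SE, adjusted p = 0.027). Mouse Srebf2 did not pass in 16 of 19 fits that left out 1 library (adjusted p from 0.051 to 0.095). Mouse Insig2 did not pass in 5 of 19 fits that left out 1 library (adjusted p from 0.051 to 0.087). In the rat 2 members were more negative and 0 more positive, where 8.57% of all genes were more negative and 7.33% more positive. They were Hsd17b7 (-1.91 ± 0.66 SE, adjusted p = 0.045) and Stard4 (-1.49 ± 0.47 SE, adjusted p = 0.028). Rat Hsd17b7 did not pass in 12 of 20 fits that left out 1 library (adjusted p from 0.052 to 0.098). Rat Stard4 did not pass in 6 of 20 fits that left out 1 library (adjusted p from 0.051 to 0.064). Without rat phalanx HZ replicate 2 or tibia HZ replicate 1, 4 rat members were more negative. The median over the members was -0.62 in the mouse and -0.31 in the rat, against 0.11 and 0.03 over all genes. Without mouse phalanx HZ replicate 5, 9 mouse members were more negative and 2 more positive.

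The same test of age gave 1 mouse member with a more negative age change in the HZ than in the PZ and 0 with a more positive one, where 1.60% of all genes were more negative and 0.841% more positive. It was Npc1 (-0.95 ± 0.23 SE, adjusted p = 0.018), which was higher with age in the PZ and measured 1143, 1303, 1211, 988 and 1169 in the 4-week HZ, where each library was below 4 of the 5 libraries of the 1-week HZ. In the rat 0 members were called in limma in either direction, 1 had an unadjusted p under 0.05, and 2.82% of all genes were more negative and 1.53% more positive.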

How the data were processed

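Expression was measured by RNA sequencing of laser-captured growth plate zones. The deposited values are log2 normalized counts plus 1, 1 table per species, made by the authors with STAR 2.4.2 (alignment), featureCounts 1.4.6 (gene counts) and DESeq2 (scaling of libraries), and the submitters' notes name the builds mm10 and rn6. The unlogged low values of each library were whole multiples of 1 step (100% within 0.05 of a whole number), taken as 1 read, and the reads per library given here were recovered that way. Here 26 mouse and 29 rat entries with a date or no name and 215 second rat entries of a gene were dropped. The design assumed this log2 unit. Genes that reached a normalized count of 10 in 5 or more libraries were tested with limma 3.58.1 (trend and robust empirical Bayes, statmod 1.5.0, R 4.3.3) over all 6 groups of a species, and a gene was called at a Benjamini-Hochberg adjusted p under 0.05 over all genes tested. Normalized counts in the text are 2 to the power of the deposited value, minus 1. Fold changes are on the log2 scale with the pseudocount of 1, which understates changes of low genes. Levels are not per length and were not compared between genes. P-values measure the spread between these libraries.

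The members and all gene lists were chosen with earlier results of these data known, and no p is given for a list. Values in every library are given for members called in the same direction in both species, and otherwise for those among the 3 smallest adjusted p of a comparison. The Srebp regulators are given in the zone and age comparisons whatever their p, and some further members are shown for their role. Of other lists at most 3 genes are named. Values of some list genes are not reported here. Alternatives were a 2-fold minimum, a pseudocount of 4, no filter on low values, quantile normalization, marrow marker scores, only the groups compared with and without a replicate block, and each library left out. Chondrocyte scores and osteoclast, endothelial and macrophage scores were added after seeing the data. The fit was also run on simulated counts with known changes planted in some genes, which did not copy the cell mixtures of these captures. Its outcome is not reported here and no result rests on it. Scores and plots were made with Python 3.11.15, pandas 2.3.3 and matplotlib 3.10.9. Promoter windows are from RefSeq, GRCm38.p6.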

Additional observations from a re-analysis of the deposited data

Results flagged for a closer look

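Within groups, a single library was flagged as far from the rest in 8 of 198 sets of values. The sets were those of the tested genes among 16 members and of the module score, by group. The measure was the gap to the nearest library as a share of the range of the group on the log2 scale. Chance alone flags about 1 in 20 groups, and 8 of 198 is not above that. In the mouse phalanx HZ, replicate 5 was highest for Insig1 (gap 0.896 of the range, normalized count 1132) and Srebf2 (0.785, 1673), and replicate 4 was lowest for Npc1 (0.738, 772). Replicate 5 is also the library with raised PZ and chondrocyte markers. In the mouse phalanx PZ, replicate 5 was lowest for Scap (0.951, 408), and in the mouse 4-week tibia HZ replicate 4 was lowest for Insig2 (0.722, 456). In the rat phalanx PZ, replicate 5 was lowest for Insig2 (0.788, 1.69) and Stard4 (0.895, 159), and in the rat 1-week tibia PZ replicate 1 was lowest for Hmgcs1 (0.862, 3489).

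The difference between zones in the effect of bone or age passed its own test in limma in 10 cases, of which Hsd17b7 is one in each species. The bone difference was more negative in the HZ than in the PZ of the mouse for Mvd (-1.98), Msmo1 (-1.65), Hsd17b7 (-1.43), Sqle (-1.27) and Srebf2 (-0.862), and more positive for Npc2 (1.24) and Insig2 (1.06), all on the log2 scale. In the rat it was more negative for Hsd17b7 (-1.91) and Stard4 (-1.49). The age change of mouse Npc1 was more negative in the HZ (-0.954). Stard4 in rat phalanx PZ replicate 5 lies on the side of the phalanx HZ, and the part of that library in the difference was not tested beyond leaving it out.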

How the results depend on the processing

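Counts of members called, higher plus lower, follow where they moved by over 1.5 times. Shares of all genes called were computed for the main fit only, so these counts have no background beside them. Zones stand for HZ against PZ, ages for 4 weeks against 1 week in the tibia, bones for phalanx against tibia at 1 week, and the differences of those differences are called age against zone and bone against zone. A 2-fold minimum gave 3 for 1-week tibia zones, 5 for 4-week tibia zones, 0 for PZ ages, 1 for HZ ages and 0 for age against zone in the mouse, and 3 for 1-week tibia zones, 1 for 4-week tibia zones, 2 for phalanx zones, 0 for HZ ages, 0 for PZ bones and 7 for HZ bones in the rat. A pseudocount of 4 gave 4 for bone against zone in the rat. No filter on low values gave 1 for 4-week tibia zones and 1 for bone against zone in the rat. Quantile normalization gave 0 for age against zone in the mouse, and 4 for 1-week tibia zones and 4 for 4-week tibia zones in the rat. B lymphocyte, erythroid and neutrophil scores as covariates gave 0 for PZ ages, 0 for HZ ages and 0 for PZ bones in the mouse, and 1 for 1-week tibia zones, 1 for 4-week tibia zones, 0 for HZ ages, 0 for PZ bones and 4 for bone against zone in the rat. Fitting only the groups compared gave 18 for 4-week tibia zones, 10 for PZ ages, 7 for PZ bones and 4 for bone against zone in the mouse, and 1 for HZ ages and 1 for bone against zone in the rat. Adding a replicate block to that fit gave 20 for 4-week tibia zones, 10 for PZ ages and 8 for PZ bones in the mouse, and 4 for 4-week tibia zones and 4 for HZ ages in the rat. The chondrocyte score as a covariate gave 5 for 4-week tibia zones, 4 for phalanx zones, 4 for PZ ages, 5 for HZ bones and 3 for bone against zone in the mouse, and 1 for 4-week tibia zones, 3 for phalanx zones, 3 for PZ ages, 5 for HZ ages, 0 for PZ bones, 0 for HZ bones and 1 for bone against zone in the rat. The osteoclast, endothelial and macrophage scores as covariates gave 0 for 1-week tibia zones, 1 for 4-week tibia zones, 1 for phalanx zones, 0 for PZ ages, 0 for HZ ages and 0 for PZ bones in the mouse, and 0 for 4-week tibia zones, 3 for phalanx zones, 2 for PZ ages, 0 for HZ ages, 0 for PZ bones, 1 for HZ bones and 4 for bone against zone in the rat. The scores of the chondrocyte and of the osteoclast, endothelial and macrophage markers were chosen after seeing the data. The replicate numbers were not used as pairs: no comparison had a correlation of deviations over 0.1 in every pair, and its range over all pairs was -0.13 to 0.29. Between zones the best match of an HZ library was often the PZ library of its own number. This held for 4 of 5, 3 of 5 and 3 of 4 in the mouse 1-week tibia, 4-week tibia and phalanx. In the rat it was 3 of 5 in each, and in the age and bone comparisons 0 to 3. Whether zones of the same number share an animal cannot be told from this. With the replicate block the phalanx against the tibia HZ gave 15 mouse and 14 rat members and the phalanx zones 13 and 8. Leaving out 1 library gave 17 to 20 for HZ bones, 0 to 1 for PZ bones, 14 to 19 for phalanx zones, 6 to 9 for 1-week tibia zones, 7 to 9 for 4-week tibia zones, 1 to 1 for age against zone, 5 to 11 for bone against zone, 2 to 5 for HZ ages and 1 to 2 for PZ ages in the mouse, and 12 to 14 for HZ bones, 0 to 4 for PZ bones, 7 to 14 for phalanx zones, 3 to 5 for 1-week tibia zones, 1 to 4 for 4-week tibia zones, 0 to 0 for age against zone, 0 to 4 for bone against zone, 0 to 5 for HZ ages and 0 to 0 for PZ ages in the rat.

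With the osteoclast, endothelial and macrophage scores, log2 fold changes of the mouse 4-week tibia zones turned to Fdps 0.0419. With the chondrocyte score, log2 fold changes of the mouse phalanx zones turned to Cyp51 0.33, Fdft1 0.31, Fdps 0.0186, Hmgcs1 0.25, Hsd17b7 0.39 and Lss 0.029. With the chondrocyte score, log2 fold changes of the mouse HZ bones turned to Insig1 0.0411. With the osteoclast, endothelial and macrophage scores, log2 fold changes of the rat 1-week tibia zones turned to Npc2 -0.13. With the chondrocyte score, log2 fold changes of the rat phalanx zones turned to Insig1 0.26 and Srebf2 0.0756. With the osteoclast, endothelial and macrophage scores, log2 fold changes of the rat phalanx zones turned to Hmgcs1 0.0367, Insig1 0.16 and Srebf2 0.10. With the B lymphocyte, erythroid and neutrophil scores, log2 fold changes of the rat PZ bones turned to Fdps 0.18. With the chondrocyte score, log2 fold changes of the rat HZ bones turned to Dhcr7 0.0862, Msmo1 0.26, Npc2 -0.34, Nsdhl 0.13, Sc5d 0.27 and Sqle 0.00457. With the osteoclast, endothelial and macrophage scores, log2 fold changes of the rat HZ bones turned to Lss 0.094 and Nsdhl 0.0577. The cause of these changes was not tested. Apart from the fits that left out 1 library, the main fit and the other settings gave 0 calls in limma in 37 cases. In these cases between 0 and 10 members had an unadjusted p under 0.05. Mouse 1-week tibia HZ libraries were the shallowest, with a median of 5678503 reads in genes outside Rn45s.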
